A study of Mus musculus with 6 samples.

Results

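The Cfap genes (cilia and flagella associated proteins) of the juvenile mouse testis were described in animals with and without Rif1 in their germ cells. Members were the genes whose symbol starts with Cfap followed by a digit, which gave 48 of the 50763 genes in the count table. The pattern itself uses no measured value. The family was nevertheless taken up with its difference between the genotypes already known, so counts and medians over members describe that difference and are no independent support for it. The samples were testes of Mus musculus at postnatal day 14, 3 from wild type mice (WT) and 3 from mice of the genotype sKO. Per the series title, sKO is a conditional knockout of Rif1 in germ cells that have not yet entered meiosis. RIF1 is a protein of DNA repair and of replication timing. No source used here gives the Cre driver, the deleted exons or any allele of the WT mice, or says whether libraries of one genotype came from different mice. P-values therefore reflect no more than how far these libraries spread, and that spread may be technical.

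A motile cilium or sperm flagellum is built on an axoneme, a ring of doublet microtubules around a central pair. Dynein arms on the doublets make the doublets slide, radial spokes carry signals from the central apparatus to the arms, and proteins inside the doublet walls stiffen them. Most Cfap proteins were first listed in the flagellum of the alga Chlamydomonas and named by number, so the shared name marks a place of discovery, not a common ancestor. In the testis many axonemal genes are switched on in meiotic spermatocytes, well before the flagellum grows in spermatids.

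Total counts per library lay between 15941672 and 18296594, and 3 counts, the limit that a count of 0 allows, corresponded to between 0.165 and 0.187 CPM (counts scaled to the library total). Such limits cover counting error only, because reads are not independent molecules. Rif1, the targeted gene, stood at 96.5, 83.7 and 129 CPM in WT libraries 1 to 3 and at 42.0, 46.4 and 49.2 CPM in sKO libraries 1 to 3. Its log2 fold change was -1.17 (SE 0.15), with an edgeR adjusted p of 0.0145. Sertoli cell markers were present at summed levels of 7514 to 10442 CPM and spermatogonia markers at 1065 to 1218 CPM, so the libraries held both somatic and germ cell transcripts.

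Several Cfap transcripts of the central apparatus, the radial spokes, the inner arm region and the doublet wall were lower in sKO. Of the 48 members, 40 had enough counts to be tested, and edgeR called 6 of them lower (adjusted p under 0.05): Cfap46, Cfap57, Cfap206, Cfap54, Cfap45 and Cfap251. These 6 fell between 2.92-fold and 6.39-fold, and in each of them every sKO library lay below every WT library. Over all 18860 genes tested, 1.27% were called lower and 0.0318% higher. edgeR called 0 members higher, also at an unadjusted p under 0.05, and DESeq2 and limma-voom called 0 higher as well. In a testis sample, fewer cells of a type and less RNA per cell cannot be told apart.

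Lower estimates reached beyond the called members. Among the 40 tested members 34 had lower estimates in sKO, 14 were lower by at least 2-fold, and 24 were lower at an unadjusted p under 0.05. Over all genes tested 44.7% had lower estimates, 3.52% were lower by at least 2-fold, and 1611 of 18860 were lower at an unadjusted p under 0.05. The median log2 fold change was -0.63, where the median over all genes tested was 0.03. In 24 of the 40 every sKO library lay below every WT library, a pattern that 10.7% of all tested genes showed. The reverse pattern was seen in 0 members and in 9.58% of tested genes.

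Omitting a library changed how many members were called. Omitting WT library 1, 2 or 3 left 4, 0 and 12 lower calls, while the lower calls over all genes numbered 101, 0 and 502 of 19259, 19369 and 19436 tested. Omitting sKO library 1, 2 or 3 left 0, 0 and 11, against 0, 0 and 624 of 19332, 19469 and 19317 genes. In the 3 cases with 0 calls, 25, 26 and 21 members were lower at an unadjusted p under 0.05, as were 1662, 1410 and 1221 of all genes. With DESeq2, 17 members were called lower, against 3.82% of all genes tested. With limma-voom it was 0, as over all genes, with 24 members at an unadjusted p under 0.05; with its robust prior it was again 0 members, against 0.0795% of all genes.

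**Figure D1:**
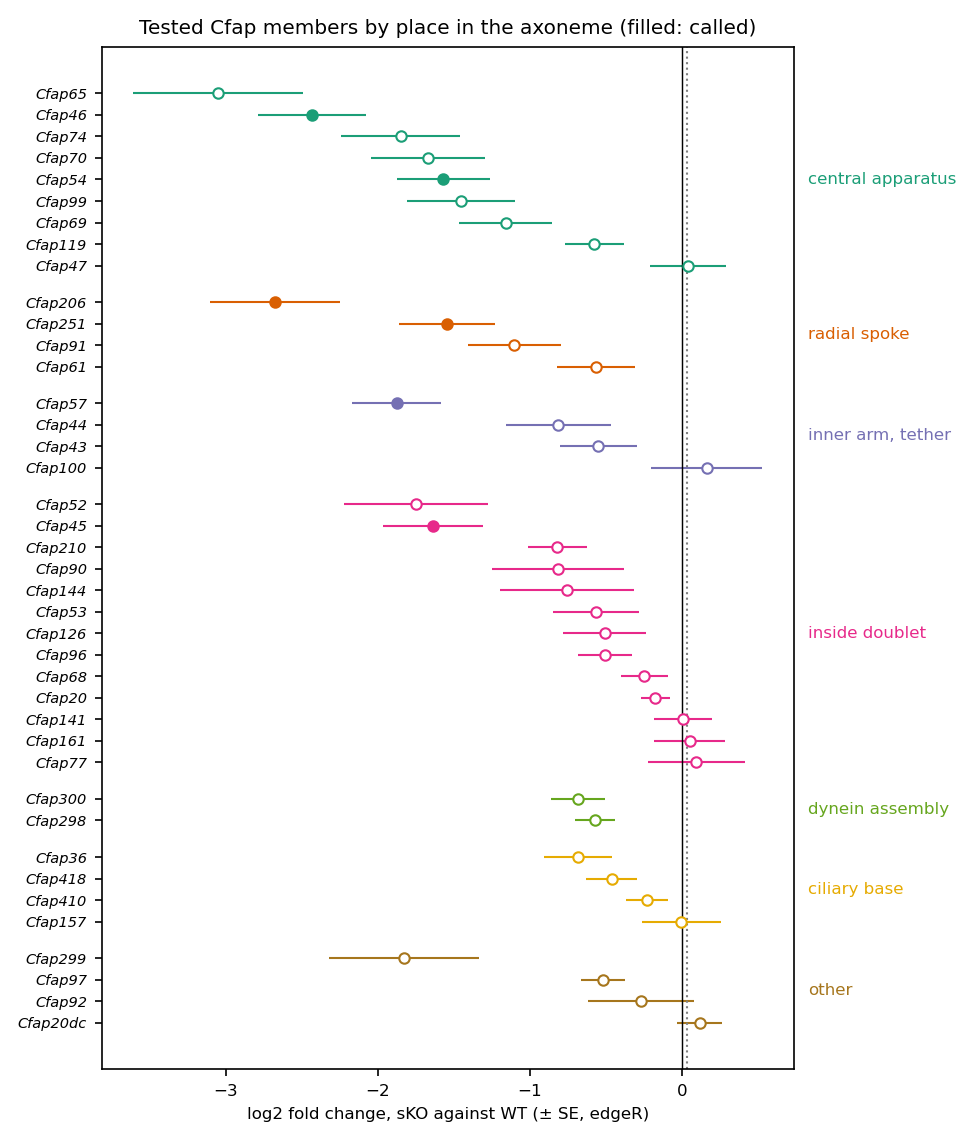
Log2 fold change of sKO against WT for the 40 tested Cfap members, grouped by place in the axoneme; points are edgeR estimates, bars their standard error, filled points the 6 called members, and the dotted line the median of all genes tested (0.03). Estimates reach from -3.05 for Cfap65 to 0.16 for Cfap100, and 34 of the 40 lie below 0.

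The central apparatus runs through the middle of the axoneme and carries projections that touch the radial spokes. Of 10 members assigned to it 9 were tested and 2 were called lower, against 1.27% of all tested genes. In 8 every sKO library lay below every WT library, against 10.7% of all tested genes. The median log2 fold change of the 9 was -1.57. Cfap46 and Cfap54 encode proteins of the same projection, C1d in Chlamydomonas. Cfap46 stood at 23.9, 14.8 and 9.51 CPM in WT libraries 1 to 3 and at 2.28, 2.48 and 4.12 CPM in sKO libraries 1 to 3. The lowest WT library was thus more than 2-fold above the highest sKO library (log2 fold change -2.43, SE 0.36, edgeR adjusted p = 0.0243). Over all alternatives the adjusted p of Cfap46 lay between 7.64e-25 and 0.159, and 10 of 16 called it. Cfap54 stood at 8.69, 5.36 and 4.10 CPM in WT and at 1.56, 2.30 and 2.25 CPM in sKO. It was lower in all 3 sKO libraries than in any WT library (log2 fold change -1.57, SE 0.31, edgeR adjusted p = 0.0418). Without WT library 1 the Cfap54 estimate was -1.21 and its edgeR adjusted p was 0.0990, against a range of 1.27e-06 to 0.182 over all alternatives.

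Among the tested members, the estimate farthest from 0 belonged to a gene that was not called. Cfap65, a central apparatus gene needed for the sperm flagellum, stood at 68.3, 40.9 and 27.1 CPM in WT libraries 1 to 3. In sKO libraries 1 to 3 it stood at 3.30, 3.45 and 9.57 CPM. The groups lay far apart, but both spread widely, and sKO library 3 held 2.83 times the mean level of the other sKO libraries. The log2 fold change was -3.05 (SE 0.56, edgeR adjusted p = 0.0775); over the alternatives it lay between -3.78 and -2.39, with an adjusted p of 0.00013 to 0.396. Cfap74, another C1d gene, stood at 51.9, 29.3 and 18.7 CPM in WT and at 7.45, 7.93 and 12.3 CPM in sKO (log2 fold change -1.85, SE 0.39, edgeR adjusted p = 0.0779). Its WT libraries differed among themselves more than the lowest of them differed from the highest sKO library.

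The other central apparatus members did not pass the test. Cfap70, Cfap99 and Cfap69 had log2 fold changes of -1.67, -1.45 and -1.16 without overlap of the groups, and Cfap119 had one of -0.58. Cfap47 was the exception. It is the only member assigned to the X chromosome by RefSeq (GRCm38), and it held 75, 57 and 68 counts in WT libraries 1 to 3 and 48, 70 and 91 counts in sKO libraries 1 to 3. The sKO range spanned the WT range (log2 fold change 0.04, SE 0.25, edgeR adjusted p = 0.959), and the sign turned without WT library 2 (-0.06) or sKO library 3 (-0.18).

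**Figure D2:**
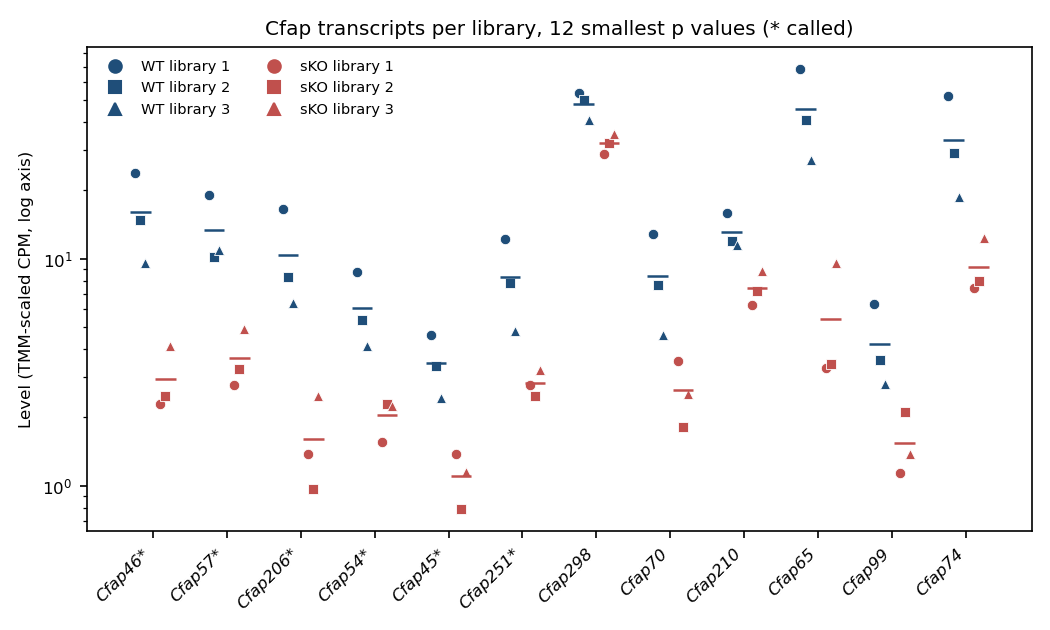
Level in each library of the 12 tested Cfap members with the smallest p, in CPM on a log axis; blue symbols are WT, red symbols sKO, symbol shapes the library number, and horizontal lines the mean of 3 libraries. For all 12 the 3 sKO libraries lie below the 3 WT libraries, and WT library 1 is the highest of the 6 libraries.

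Of the 4 radial spoke members 2 were called lower, against 1.27% of all tested genes. Each of the 4 had every sKO library below every WT library, against 10.7% of all tested genes. The median log2 fold change of the 4 was -1.32. Cfap206 encodes a docking protein of the second radial spoke, as known from Tetrahymena. It stood at 16.5, 8.31 and 6.34 CPM in WT libraries 1 to 3 and at 1.38, 0.969 and 2.47 CPM in sKO libraries 1 to 3. The highest sKO library lay below the lowest WT library by more than 2-fold (log2 fold change -2.68, SE 0.43, edgeR adjusted p = 0.0299). Over all alternatives the adjusted p of Cfap206 lay between 3.97e-21 and 0.170, and 10 of 16 called it. Cfap251, Cfap91 and Cfap61 encode the 3 named proteins of the calmodulin and spoke associated complex, which sits near the bases of the spokes in Chlamydomonas. Cfap251 stood at 12.2, 7.84 and 4.79 CPM in WT and at 2.76, 2.48 and 3.24 CPM in sKO. The sKO libraries were close together and the WT libraries were not (log2 fold change -1.54, SE 0.32, edgeR adjusted p = 0.0467). Cfap91 had an estimate of -1.10 (SE 0.31) and Cfap61 one of -0.56 (SE 0.25), and neither passed the test (edgeR adjusted p 0.119 and 0.366). Without WT library 1 the Cfap251 estimate was -1.15 and its edgeR adjusted p was 0.102, against a range of 7.67e-08 to 0.226 over all alternatives.

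Genes of the inner arm region were mixed. Cfap57 encodes a protein that helps to seat inner dynein arms in Chlamydomonas. It stood at 19.1, 10.2 and 10.9 CPM in WT libraries 1 to 3 and at 2.76, 3.27 and 4.89 CPM in sKO libraries 1 to 3. Every WT library was more than 2-fold above every sKO library (log2 fold change -1.87, SE 0.29, edgeR adjusted p = 0.0245). Over all alternatives the adjusted p of Cfap57 lay between 5.31e-15 and 0.159, and 10 of 16 called it. Cfap43 and Cfap44 encode a tether of the inner arms, and loss of either disturbs the mouse sperm tail. Their groups overlapped, and their estimates of -0.55 (SE 0.25) and -0.81 (SE 0.35) did not pass the test (edgeR adjusted p 0.386 and 0.335). Cfap100, part of a modifier of inner arms in Chlamydomonas, stood at 1.23, 1.12 and 1.06 CPM in WT and at 1.32, 1.76 and 0.770 CPM in sKO. The sKO values lay on both sides of the WT values (log2 fold change 0.16, SE 0.37, edgeR adjusted p = 0.885), and the estimate was -0.13 without sKO library 2.

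Proteins inside the doublet wall bind the lumen side of the microtubules. Of 16 members 13 were tested, 1 was called lower, and the median log2 fold change was -0.51. In 5 every sKO library lay below every WT library. Over all tested genes 1.27% were called lower and 10.7% showed that pattern. Cfap45, found inside the B tubule, stood at 4.60, 3.36 and 2.43 CPM in WT libraries 1 to 3 and at 1.38, 0.787 and 1.15 CPM in sKO libraries 1 to 3. All sKO libraries were below all WT libraries (log2 fold change -1.64, SE 0.33, edgeR adjusted p = 0.0440). Cfap52, its neighbour in the B tubule, stood at 7.07, 3.06 and 1.68 CPM in WT and at 1.32, 1.09 and 1.10 CPM in sKO. WT library 3 lay closer to the sKO libraries than to WT library 1 (log2 fold change -1.75, SE 0.47, edgeR adjusted p = 0.116). Without WT library 1 the Cfap45 estimate was -1.38 and its edgeR adjusted p was 0.123, against a range of 7.39e-05 to 0.218 over all alternatives.

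The rest of that group lay between these values and no difference. Cfap210, Cfap90, Cfap144, Cfap53, Cfap126 and Cfap96 had log2 fold changes from -0.82 to -0.51, none of them past the test. Cfap20 closes the inner junction of the doublet and is conserved from algae to mammals. It stood at 77.5, 74.7 and 68.6 CPM in WT and at 63.4, 68.8 and 63.6 CPM in sKO, so that sKO library 2 was level with WT library 3. The estimate was -0.17 (SE 0.10, edgeR adjusted p = 0.466). Cfap68, Cfap141, Cfap161 and Cfap77 had log2 fold changes of -0.25, 0.01, 0.05 and 0.10 with overlapping groups. Cfap141, Cfap161 and Cfap77 had a lower rather than higher estimate under some alternatives, with values down to -0.12.

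Of 2 members of dynein arm assembly and 4 of the ciliary base none was called by edgeR, and 4 of these 6 passed an unadjusted p under 0.05, each of them lower. Over all tested genes 1.27% were called lower, and 1611 of 18860 were lower at an unadjusted p under 0.05. With 6 genes, 0 calls do not differ from that share. Cfap298 and Cfap300 act in the assembly of dynein arms in the cytoplasm. Cfap298 stood at 53.3, 49.7 and 40.7 CPM in WT libraries 1 to 3 and at 28.9, 32.4 and 35.4 CPM in sKO libraries 1 to 3. The groups did not overlap (log2 fold change -0.57, SE 0.13, edgeR adjusted p = 0.0610). Cfap300 had a log2 fold change of -0.68 (SE 0.17, edgeR adjusted p = 0.0898), also without overlap. Cfap36, whose protein binds the ciliary GTPase ARL3, reached 103 CPM in WT library 1 and stood at 63.3 and 63.4 CPM in WT libraries 2 and 3. In sKO libraries 1 to 3 it stood at 43.2, 39.4 and 60.6 CPM, the last close to the lower WT libraries (log2 fold change -0.68, SE 0.22, edgeR adjusted p = 0.213).

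Cfap418 and Cfap410, which are linked to photoreceptor cilia, had log2 fold changes of -0.46 and -0.23. Cfap157, a basal body gene of the sperm flagellum, had an estimate of -0.005 (SE 0.26). Its mean was 3.63 ± 0.641 CPM in WT libraries and 3.62 ± 0.912 CPM in those of sKO (SD, n = 3 each), and its sign turned under 4 alternatives. Among the 6 members given no place in the axoneme here, Cfap97 had a log2 fold change of -0.52 (SE 0.14, edgeR adjusted p = 0.116). Its WT mean was 69.1 ± 15.1 CPM and its sKO mean 48.2 ± 2.45 CPM (SD, n = 3 each). Cfap299 had one of -1.83 at a low level, with 14 to 40 counts in the WT libraries and 4 to 9 in those of sKO. Cfap92 and Cfap20dc had log2 fold changes of -0.27 and 0.12 with overlapping groups.

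The 8 members that were not tested held at most 25 counts in a library. They were Cfap107, Cfap221, Cfap276, Cfap58, Cfap73, Cfap95, Cfap97d1 and Cfap97d2. Cfap221, a further C1d gene, held 25, 13 and 9 counts in WT libraries 1 to 3 and 5, 3 and 4 counts in sKO libraries 1 to 3, which keeps the groups apart. Cfap107 held 8, 2 and 3 counts in WT and 1, 0 and 0 counts in sKO. Cfap58, needed for the mouse sperm tail, held at most 4 counts in a library, and Cfap97d1 held 0 counts in WT and at most 1 in sKO. When the low-count filter was dropped, edgeR called 1 of these 8 lower, Cfap221 (log2 fold change -1.94, SE 0.59, edgeR adjusted p = 0.0368), and 0 higher. The other 7 were not called in that fit. It called far more genes than the main fit, 992 lower and 154 higher of 35085. With the filter, 240 were called lower and 6 higher of 18860.

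Levels of different members were compared per kilobase of merged exons, a length that was found for 31 members. Members without a length, such as Cfap418 and Cfap68 with WT means of 39.9 and 25.7 CPM, could not be ranked. Among the 31 with a length, the highest WT means were 30.2 CPM per kilobase for Cfap298, 27.9 for Cfap36, 22.3 for Cfap300, 16.5 for Cfap20 and 13.4 for Cfap97. These leading 5 act in dynein assembly, at the ciliary base, at the doublet junction or, for Cfap97, in a place not assigned here. Their log2 fold changes lay between -0.68 and -0.17, and none was called. Cfap65 followed with 5.81 CPM per kilobase in WT and 0.696 in sKO. Cfap206 and Cfap57 had WT means of 4.18 and 3.33 CPM per kilobase, Cfap46 one of 1.74, Cfap45 one of 0.605 and Cfap54 one of 0.413. The called members with a known length thus all lay below the leading 5 in WT.

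Promoter windows were looked up because members moved together. RefSeq (GRCm38.p6) gave windows of 300 bases, from 250 before to 50 after a transcript start, for 27 members. RFX factors bind the X-box, an inverted repeat in promoters of ciliary genes, and MYBL1 drives spermatocyte genes through MYB sites. Windows were searched on both strands for exact letters only, so looser forms of the X-box were not counted. Searched were the X-box core GTTGCC and a strict whole X-box palindrome, GTTNCC and GGNAAC with any 2 bases between them. That palindrome can contain the core. The MYB letters TAACNG and the CRE palindrome TGACGTCA, a match for CREM, were searched too. The 5 windows printed here are from called members with a match (Cfap46, Cfap206), from the 2 members with a whole palindrome (Cfap298, Cfap20dc) and from the member with the most core matches among members with overlapping groups (Cfap161). Capitals mark the matched letters.
Cfap46 (GRCm38.p6 chr7:139683766-139684065, minus strand): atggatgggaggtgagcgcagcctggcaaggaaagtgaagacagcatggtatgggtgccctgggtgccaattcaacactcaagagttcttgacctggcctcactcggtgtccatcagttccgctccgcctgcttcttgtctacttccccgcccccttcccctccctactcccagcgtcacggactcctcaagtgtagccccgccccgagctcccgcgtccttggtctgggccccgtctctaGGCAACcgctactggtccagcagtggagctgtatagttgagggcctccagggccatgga
Cfap206 (GRCm38.p6 chr4:34730157-34730456, minus strand): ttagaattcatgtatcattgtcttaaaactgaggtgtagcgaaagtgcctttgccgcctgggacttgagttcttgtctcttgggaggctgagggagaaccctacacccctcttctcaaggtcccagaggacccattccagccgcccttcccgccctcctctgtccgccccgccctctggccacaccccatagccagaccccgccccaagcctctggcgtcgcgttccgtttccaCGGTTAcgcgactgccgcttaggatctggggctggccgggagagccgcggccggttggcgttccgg
Cfap298 (GRCm38.p6 chr16:90934800-90935099, minus strand): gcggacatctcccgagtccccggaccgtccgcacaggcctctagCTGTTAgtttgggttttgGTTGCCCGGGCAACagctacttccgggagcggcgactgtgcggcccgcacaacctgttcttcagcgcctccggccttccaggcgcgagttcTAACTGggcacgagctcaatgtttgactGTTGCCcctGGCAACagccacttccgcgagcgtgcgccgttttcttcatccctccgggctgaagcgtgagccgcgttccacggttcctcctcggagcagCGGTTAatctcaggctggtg
Cfap20dc (GRCm38.p6 chr14:8666241-8666540, minus strand): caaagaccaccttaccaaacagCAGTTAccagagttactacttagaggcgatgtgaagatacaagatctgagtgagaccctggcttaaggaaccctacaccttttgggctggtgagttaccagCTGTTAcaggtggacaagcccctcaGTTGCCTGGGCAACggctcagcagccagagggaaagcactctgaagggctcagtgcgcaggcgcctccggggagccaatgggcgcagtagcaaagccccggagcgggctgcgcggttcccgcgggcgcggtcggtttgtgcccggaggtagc
Cfap161 (GRCm38.p6 chr7:83794790-83795089, minus strand): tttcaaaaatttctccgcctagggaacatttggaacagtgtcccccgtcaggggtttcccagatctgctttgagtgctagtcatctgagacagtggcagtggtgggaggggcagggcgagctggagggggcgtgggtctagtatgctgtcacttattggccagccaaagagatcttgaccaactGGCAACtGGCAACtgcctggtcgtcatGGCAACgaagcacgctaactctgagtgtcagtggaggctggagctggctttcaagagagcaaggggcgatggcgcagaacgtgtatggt

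The letters were found in members whose groups lay apart and in members whose groups overlapped. The X-box core occurred in windows of 11 of the 27 members, which was 12 of 30 windows (40%), against 12.5% of all 32851 windows in the table. The whole palindrome occurred in Cfap298 and Cfap20dc, 6.67% of member windows against 0.451% of all windows. In Cfap20dc it lies in the window of a gene whose WT mean was 12.6 ± 1.36 CPM and whose sKO mean was 13.7 ± 0.377 CPM (SD, n = 3 each). MYB letters occurred in 11 member windows (36.7%, against 23.3% of all windows), and the CRE palindrome in 0 member windows against 1.79% of all. Of the called members with a window, Cfap46 held the core at position -9 and Cfap206 the MYB letters at position -16, counted from the transcript start. Cfap45 and Cfap57 held none of these letters in exact form. Their windows hold gttgctatggtaac and gttgctataggaac, which resemble the searched palindrome without matching it. The window of Cfap44, which was not called and whose groups overlapped, holds the similar gttgctatGGCAAC, with the core in capitals. Such looser forms were not counted in any window, so an X-box in Cfap45 and Cfap57 was not tested. How looser forms divide between called and other members was not tested either. A match is a run of letters, not a bound site.

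The Cfap genes also varied among WT libraries. WT library 1 was the highest WT library for 34 of the 40 tested members (85%), against 38.6% of all tested genes. WT library 3 was the lowest for 29 of them (72.5%), against 26.5% of all genes. The median of the log2 ratio of WT library 1 to WT library 3 was 0.54 over tested members and 0.00 over all genes. For each tested member the log2 ratio of WT library 1 to WT library 3 was set against the mean log2 level of the sKO libraries relative to WT library 2, so that no library enters both axes. Across the 40 genes Pearson's r was -0.74 and Spearman's rho -0.70, against -0.37 and -0.16 across all tested genes. These are descriptions across genes that share the same libraries and depth, and genes are not independent replicates.

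**Figure D3:**
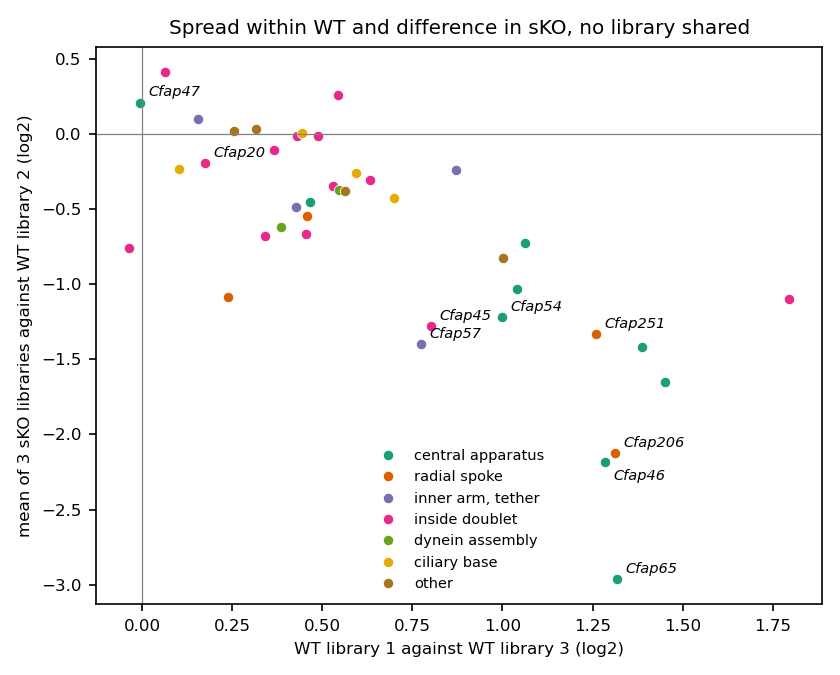
Each point is a tested Cfap member; the horizontal axis is the log2 ratio of WT library 1 to WT library 3, the vertical axis the mean log2 level of the sKO libraries relative to WT library 2, and colours mark the place in the axoneme. Cfap65, Cfap46 and Cfap206 lie lowest, Cfap52 has the widest WT spread (1.80) at a height of -1.10, and Cfap20 lies near 0 on both axes (Pearson's r -0.74 across 40 genes).

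Axonemal genes with other names differed in the same direction. Of the 100 such genes with a row, 90 were tested, and edgeR called 16 lower and 0 higher, again with 0 higher at an unadjusted p under 0.05 or by DESeq2 or limma-voom. The median log2 fold change of the 90 was -0.76, and 60 of them had every sKO library below every WT library. Over all tested genes 1.27% were called lower and 10.7% showed that pattern. Higher calls over all genes made up 0.0318% by edgeR, 0.297% by DESeq2 and 0% by limma-voom, and 954 of 18860 were higher at an unadjusted p under 0.05. Omitting WT library 1, 2 or 3 left 8, 0 and 35 lower calls, and omitting sKO library 1, 2 or 3 left 0, 0 and 31, beside the 101, 0, 502, 0, 0 and 624 lower calls over all genes in those fits. Spag17, Hydin and Wdr93 share the central apparatus with the Cfap genes described first. Spag17 stood at 6.90, 7.78 and 5.29 CPM in WT libraries 1 to 3 and at 1.14, 0.605 and 1.21 CPM in sKO libraries 1 to 3. Its groups stood well apart with little spread in WT (log2 fold change -2.74, SE 0.30, edgeR adjusted p = 0.0145). Hydin was also called, at -1.44 (SE 0.30), while Wdr93 at -1.31 (SE 0.28) was not (edgeR adjusted p 0.0480 and 0.0548).

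Dynein heavy chains had 4 of 15 tested genes called lower, and intermediate chains, light chains and docking factors 3 of 11. These counts, and those of the further lists below, stand beside 1.27% called lower over all tested genes. Dnah1, an inner arm heavy chain of the sperm tail, had a log2 fold change of -1.38 (SE 0.26) at an edgeR adjusted p of 0.0414. Dnah7a and Dnah7c had log2 fold changes of -2.55 and -1.87, but they are near-identical copies between which the counting could split reads. The dynein intermediate chain genes Dnai3 and Dnai1 were called at -2.80 (SE 0.45) and -1.18 (SE 0.24), and the docking gene Odad3 at -1.44 (SE 0.30); their edgeR adjusted p were 0.0253, 0.0452 and 0.0480. Radial spoke and nexin-dynein regulatory complex genes had 4 of 18 called lower, among them Drc3, Drc7 and Drc1 with log2 fold changes of -0.85, -2.63 and -1.86. Assembly factors had 2 of 15, Zmynd10 at -3.61 and Dnaaf1 at -1.11, with Dnaaf11 at -1.89 not called. Doublet proteins without a Cfap name had 1 of 19, the tektin gene Tekt1 at -2.95, with Ribc2 at -0.76 and Spag8 at -1.21 not called.

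Of 14 tested transcription regulators of ciliary or germ cell genes, edgeR called 1 lower and 0 higher, with 5 lower and 0 higher at an unadjusted p under 0.05. Over all tested genes 1.27% were called lower and 0.0318% higher. At an unadjusted p under 0.05, 1611 of 18860 were lower and 954 higher. The called regulator was Rfx2, an X-box binding factor needed for mouse spermatids. Rfx2 stood at 47.6, 51.8 and 31.5 CPM in WT libraries 1 to 3 and at 14.0, 14.5 and 22.2 CPM in sKO libraries 1 to 3. The groups did not overlap (log2 fold change -1.37, SE 0.22, edgeR adjusted p = 0.0299). Rfx1 and Rfx3 stood level, with log2 fold changes of 0.06 (SE 0.12) and 0.08 (SE 0.14) and overlapping groups. Rfx4 stood at 11.6, 5.89 and 3.05 CPM in WT and at 0.240, 0.303 and 1.26 CPM in sKO (log2 fold change -3.46, SE 0.68, edgeR adjusted p = 0.0596). Mybl1, Tcfl5 and Sox30, regulators of spermatocytes and spermatids, had estimates of -0.59, -0.66 and -1.03 that did not pass the test. Foxj1, the regulator of motile cilia in epithelia, stood at 2.13, 2.65 and 3.11 CPM in WT and at 3.60, 2.54 and 2.69 CPM in sKO, and its groups overlapped (log2 fold change 0.17, SE 0.26, edgeR adjusted p = 0.830).

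Markers of pachytene spermatocytes were lower in the sKO libraries too. Their summed level over 26 genes was 2502, 1856 and 1414 CPM in WT libraries 1 to 3 and 784, 819 and 1063 CPM in sKO libraries 1 to 3. All 23 tested had lower estimates in sKO, 4 were called lower, and the median was -1.55. Over all tested genes 44.7% had lower estimates and 1.27% were called lower. The pachytene list shares Tekt1, Spag6l, Mybl1, Tcfl5, Sox30 and Tbpl1 with the axonemal and regulator lists. The summed Cfap level was 888, 621 and 555 CPM in WT and 395, 403 and 470 CPM in sKO, so that both sums ranked the libraries alike. This order was not particular to the pachytene list. Spermatid markers summed to 280, 254 and 218 CPM in WT and to 184, 187 and 200 CPM in sKO, which is the same ranking. Of 24 spermatid markers 9 were tested, and edgeR called 1 lower. Markers of leptotene and zygotene spermatocytes summed to 2722 to 3878 CPM in WT and to 1941 to 2828 CPM in sKO, with 2 of 24 called lower. Of these 24, 10 had every sKO library below every WT library, against 10.7% of all tested genes. Lower estimates were seen in 22 of the 24 markers, 12 were lower and 0 higher at an unadjusted p under 0.05, and the median was -0.50. Those of spermatogonia summed to 1065 to 1218 CPM in WT and 1199 to 1215 CPM in sKO, and edgeR called 0 of 20, with 2 lower and 1 higher at an unadjusted p under 0.05. At that threshold 1611 of all 18860 tested genes were lower and 954 higher. The part of these cell types in the Cfap difference was not tested.

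Markers of multiciliated epithelium, which lines the efferent ducts next to the testis, summed to 102 to 123 CPM in WT and 91.0 to 101 CPM in sKO over 18 genes. Of the 12 tested, 1 was called lower, beside 1.27% of all tested genes. In 6 every sKO library lay below every WT library, beside 10.7% of all tested genes. The median log2 fold change of the 12 was -0.84, and the part of these markers in the Cfap difference was not tested. The called gene, Odad3, and Dynlrb2 and Ak7 are also on the axonemal lists, and Foxj1, Mcidas and Myb on the regulator list. Levels within the list ran from 0 in every library for Bpifa1 and at most 0.684 CPM for Mcidas to 36.6 to 42.9 CPM for Mlf1. Ccno, a regulator of centriole amplification, was at 3.12 to 3.53 CPM in WT and at 4.78 to 5.23 CPM in sKO, and Deup1, of the same process, at 1.37 to 2.52 CPM and 0.420 to 1.21 CPM. Duct and epididymis markers summed to 129 to 139 CPM in WT and to 347, 144 and 126 CPM in sKO libraries 1 to 3, with 17 of 28 tested. Library 1 of sKO held 89.7 CPM of Crisp1 and 43.7 CPM of Cdh16. Its summed Cfap level was 395 CPM, beside 403 and 470 CPM in the other sKO libraries. Without it the median log2 fold change of tested members was -0.71 and edgeR called 0 members, with 26 lower and 0 higher at an unadjusted p under 0.05. The part of duct tissue in the Cfap difference was not tested. Sertoli cell markers summed to 7514 to 8438 CPM in WT and 8905 to 10442 CPM in sKO, with 0 of 24 called by edgeR and 9 higher and 0 lower at an unadjusted p under 0.05. Over all tested genes 954 of 18860 were higher and 1611 lower at that threshold.

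**Figure D4:**
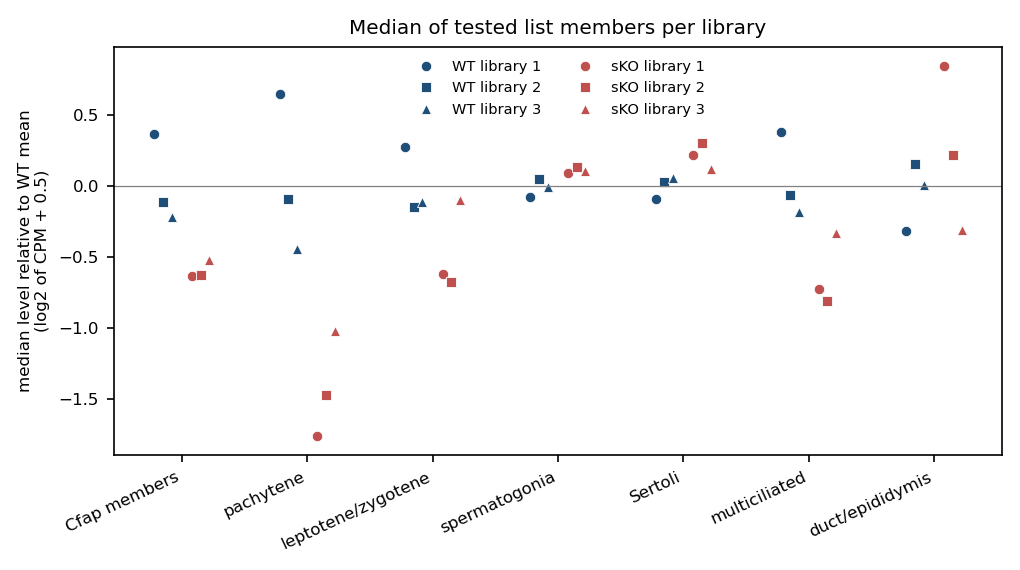
Median over the tested members of each list of the log2 level (CPM + 0.5) relative to the WT mean, by library; blue symbols are WT, red symbols sKO, and symbol shapes the library number. Within WT, Cfap members (0.36, -0.11 and -0.22) follow the order of the pachytene list (0.64, -0.10 and -0.45). The multiciliated list has the same order within WT (0.38, -0.06 and -0.19). Cfap members lie lower in sKO, and spermatogonia and Sertoli lists lie near or above 0 in sKO. For duct and epididymis markers sKO library 1 is highest.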

How the data were processed

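Testis poly(A) RNA was sequenced in 3 WT and 3 sKO samples. The authors deposited raw read counts per gene symbol in a single table. Per the submitters' processing notes, Trim Galore, HISAT2 and featureCounts were used with genome build mm39; no source used here gives versions, annotation, strand or multi-mapping settings, so reads of overlapping genes and close paralogs cannot be told apart. Columns named con and scKO were read as WT and sKO and matched to samples by number. Within a genotype, pairs of libraries differed beyond sampling noise (chi-square divided by its degrees of freedom, 4.45 to 20.2).

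The tests were run in edgeR 4.0.16 (R 4.3.3): filterByExpr, TMM factors and the robust quasi-likelihood F test of sKO against WT without covariates, with Benjamini-Hochberg adjustment over 18860 genes and a threshold of 0.05. CPM use TMM-scaled totals; SE was derived from the F statistic. DESeq2 1.42.0, limma-voom (limma 3.58.1), other scalings and filters, a replicate block and omission of libraries were alternatives. Fits were tested on simulated data. The members, lists of other genes and motifs were chosen with earlier results of these data known; the text names the called members, those of each place in the axoneme, the untested ones, the highest by length, those with the largest and smallest changes, the transcription regulators, and the 3 genes of smallest p of each list of other axonemal genes, while other marker genes were chosen after their values were seen. Members were placed in the axoneme from background knowledge. Exon lengths came from GENCODE M21 and chromosomes from RefSeq, both on GRCm38, by symbol (31 and 34 of 48 members).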

Additional observations from a re-analysis of the deposited data

How the results depend on the processing

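The median log2 fold change of the tested Cfap members kept its sign and moved by less than the spread between libraries under all 16 alternatives, from -0.76 to -0.45. The count of Cfap members called lower (6), that of other axonemal genes (16) and those of all genes (240 lower, 6 higher) moved. They were 20, 49, 992 and 154 without the low-count filter, 17, 42, 721 and 56 with DESeq2, and 0, 0, 0 and 0 with limma-voom, where 24, 55, 1598 and 932 passed an unadjusted p under 0.05. With limma-voom and a robust prior, an alternative chosen after seeing the data, they were 0, 1, 15 and 0. Leaving out each library in turn gave 0 to 12, 0 to 35, 0 to 624 and 0 to 31. Without both libraries numbered 1, 155 genes were called lower in all. The cause of these moves was not tested. The labels do not say whether same-numbered libraries form pairs. Deviations of same-numbered libraries from their group means had correlations of -0.34, 0.12 and -0.28. These values cannot decide on pairing, because other differences between libraries enter them too. A replicate block gave 0, 1, 21 and 0 calls.

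Signs turned in 7 genes near 0. Leaving out each library in turn gave -0.11 to 0.24 for Cfap141 (negative without WT library 2 or 3 or sKO library 1 or 3, at -0.11, -0.078, -0.039 and -0.013), -0.18 to 0.17 for Cfap157 (positive without WT or sKO library 1, at 0.14 and 0.17) and -0.12 to 0.17 for Cfap161 (negative without WT library 2 or sKO library 3, at -0.12 and -0.042). It gave -0.18 to 0.22 for Cfap47 (negative at -0.06 and -0.18 without the same libraries), -0.071 to 0.23 for Cfap77 (negative without WT or sKO library 3, the latter at -0.054) and -0.13 to 0.40 for Cfap100 (negative without sKO library 2). Cfap141 was at -0.00804 with DESeq2 size factors and -0.0083 with DESeq2, and Cfap157 at 0.00154 with upper-quartile factors. Without both libraries numbered 1, Cfap157 was at 0.32 and Cfap92 at 0.071. Of the 8 members removed by the low-count filter, which held at most 25 counts in a library, 1 was called lower without it.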
